A study of Mus musculus with 9 samples.

Results

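Integrin chains of leukocytes and the membrane protein Flrt3 were measured as messenger RNA in cultured mouse peritoneal macrophages. The 10 genes, of 54059 in the deposited table, are the alpha chains Itga4, Itga5, Itga6, Itgal, Itgam, Itgav and Itgax, the beta chains Itgb1 and Itgb2, and Flrt3. They were chosen by name from the table, partly because Itga5 and Flrt3 were lower with the Shp2 inhibitor SHP099 in these same libraries. For that reason the SHP099 values of the 10 genes are a description with no test, and the tests on them compare knockout with wild-type libraries.

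The cells came from C57BL/6 mice of 8 weeks that had been given starch broth into the peritoneal cavity days before a lavage, and the adherent cells were cultured in medium with serum. The WT group held 3 libraries of wild-type cells. The KO group held 3 libraries of cells from SHP2lyz2-/- mice (M-Shp2-/- in the study), in which Cre driven by the Lyz2 gene removes floxed Shp2 (Ptpn11) in myeloid cells. The SHP099 group held 3 libraries of wild-type cells pretreated with the allosteric Shp2 inhibitor SHP099 at 10 uM for 2 h. The cells of all 9 libraries received the TLR7 agonist imiquimod (IMQ) for 4 h, so no library here shows resting cells. Its dose is given as 10 ug/ml for the SHP099 experiment, and for the KO libraries it is not given in the sources used here. IMQ, the doses and the times are taken from the methods and legends of the study, since the labels do not give them. Lyz2 is active in macrophages and neutrophils, so other cell types in a KO culture would keep Shp2, whereas SHP099 was added to all cells of a culture. Both comparisons use the same 3 WT libraries. The labels do not say that the 3 libraries of a group came from separate animals, so every p value measures the spread between these libraries.

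Integrins are cell-surface receptors made of an alpha and a beta chain, and a chain reaches the surface only as part of such a pair. Itgb2 (CD18), the beta chain of leukocytes, pairs with Itgal (LFA-1), Itgam (Mac-1, the complement receptor CR3), Itgax (CD11c, also an iC3b receptor) or Itgad, and serves adhesion to endothelium and uptake of opsonised particles. Itgb1 pairs with Itga4 (binding VCAM-1 and fibronectin), Itga5 (the classical fibronectin receptor), Itga6 (binding laminin) and Itgav, which also joins other beta chains to bind vitronectin and osteopontin. Flrt3 is not an integrin: it is a single-pass membrane protein with leucine-rich repeats and a fibronectin type III domain that binds latrophilins and Unc5 receptors on neighbouring cells and associates with fibroblast growth factor receptors. Shp2 is a tyrosine phosphatase that acts below many surface receptors.

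Sequencing depth, as the reads per library that turn the deposited values back into whole reads per gene, lay between 39843043 and 50981087. The WT libraries had 44372676, 50981087 and 42531733 reads, the KO libraries 43183179, 41151786 and 45591456, and the SHP099 libraries 43893276, 39843043 and 43837105. All values below are FPKM (fragments per kilobase of transcript, scaled to the depth of the library). The length with which reads came out whole was the mean over a gene's annotated transcripts. Orders, ratios and shares of different genes therefore hold for FPKM with that length, and may differ with another length. All 10 genes passed the filter of the tests, a mean of at least 1 FPKM over the 9 libraries, which 11450 genes passed. The values of the members rested on 233 reads (Itga6 in WT_3) to 110817 reads (Itgb2 in WT_2), and between libraries of a group the spread of all genes was 18.3 (KO_1 and KO_2) to 192.3 (KO_2 and KO_3) times what counting error gives, as chi-square per degree of freedom.

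The third knockout library, KO_3, stood apart from the other two. Across the 11450 tested genes its log2 values correlated with KO_1 at r = 0.967 and with KO_2 at 0.954, whereas KO_1 and KO_2 correlated at 0.992. Its nearest library outside the group was SHP099_1, at r = 0.984. In KO_3, 710 genes (6.2%) lay more than 1 log2 unit from the mean of the other two KO libraries, against 0.725% (SHP099_2) to 4.06% (WT_3) for the other 8 libraries measured the same way. Members' KO results are therefore given with and without KO_3.

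The deleted gene itself gave the label check. Ptpn11, which encodes Shp2, read 45.8, 44.0 and 39.99 FPKM in WT, 18.6, 17.8 and 18.9 in KO and 43.0, 42.1 and 39.6 in SHP099. KO_3 was thus as low as the other KO libraries, and the inhibitor group overlapped WT. Its log2 fold change in KO against WT was -1.19 (SE 0.10, limma with Benjamini-Hochberg adjusted p = 0.0168) with all 3 of 3 KO libraries below every WT library. Without KO_3 it was -1.21 (adjusted p = 0.0473). As the samples are bulk RNA, for this and every gene below fewer cells of a type and less RNA per cell cannot be told apart.

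Marker lists for the cell types that a peritoneal lavage can hold were read as the summed FPKM of each list. All 8 macrophage markers were detected (at least 0.1 FPKM in a library), with sums of 10724, 13647 and 11417 in WT, 7797, 7674 and 8485 in KO and 11841, 13059.5 and 13839 in SHP099. The most abundant was Lyz2, the gene whose locus drives Cre in the KO mice, at 7440.3, 10228 and 7951 in WT, 4863, 4743 and 5407 in KO and 9348, 10279.9 and 10715 in SHP099. Without Lyz2 the list summed to 3284, 3419 and 3466 in WT, 2934, 2931 and 3078 in KO and 2492, 2779.6 and 3123 in SHP099, so that both groups lay below WT. Its genes did not move together: the scavenger receptor Msr1 read 303 to 366 in WT, 185 to 254 in KO and 127 to 179 in SHP099. In contrast, the growth factor receptor Csf1r read 58.2 to 111 in WT, 87.4 in KO_1, 71.8 in KO_2 and 176 to 211 in KO_3 and SHP099. These 2 genes are named after their values were seen. The macrophage markers were thus present in all 9 libraries, at levels that differed between groups.

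Fibroblast markers, led by Col1a1, were all 6 present and varied widely inside each group. Their sums were 63.8, 303 and 39.8 in WT, 135, 51.4 and 586 in KO and 361, 137 and 101 in SHP099, with the highest sum in KO_3. B-cell markers (6 of 6, led by Ighm) summed to 11.5, 17.7 and 47.5 in WT, 39.98, 19.2 and 178 in KO and 20.3, 13.8 and 27.8 in SHP099, again highest in KO_3, where Ighm made up 175 of the sum. Pf4, a platelet and megakaryocyte marker that macrophages also express, led a list in which 3 of 6 genes were detected and Ppbp, Gp9 and Gp6 were under 0.1 FPKM, with sums from 59.8 (KO_2) to 177 (KO_3). Mesothelial markers (6 of 6, led by Wt1) summed to 2.01 to 13.2, once more highest in KO_3. So in all 4 of these lists KO_3 held the highest sum of the 9 libraries. Without its leading gene the B-cell list was at 2.89 in KO_3, against 20.0 in KO_1 and 9.32 in KO_2, so of that list only Ighm was highest in KO_3, and the platelet list without Pf4 stayed under 1 FPKM in all 9 libraries.

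Other lists had their lowest sums in the SHP099 libraries. Dendritic-cell markers (6 of 6, led by Ccr7, the chemokine receptor of migrating dendritic cells) summed to 6.28, 4.11 and 3.78 in WT, 7.63, 5.25 and 3.67 in KO and 1.498, 1.03 and 1.35 in SHP099. Endothelial markers (3 of 6, led by Kdr, with Emcn at 0 and Tek and Tie1 under 0.1) summed to 5.51, 4.42 and 4.84 in WT, 5.05, 5.06 and 2.02 in KO and 1.84, 1.43 and 1.35 in SHP099. Mast-cell markers (5 of 6, led by Kit, with Fcer1a at 0) summed to 6.10, 4.76 and 6.01 in WT, 2.76, 3.19 and 1.60 in KO and 0.675, 0.564 and 0.970 in SHP099. All 3 sums were lowest in the SHP099 group, and KO_3 had the lowest sum of the KO libraries in each, but for the dendritic-cell and mast-cell lists only through the leading gene. Without Ccr7 the dendritic-cell list summed to 1.24, 1.28 and 0.809 in WT, 1.83, 1.33 and 1.66 in KO and 0.784, 0.725 and 0.619 in SHP099, so KO_3 was then among the highest. Without Kdr the endothelial list was at 0.775 in KO_3, still the lowest KO library (1.80 in KO_1 and 1.13 in KO_2) though within the 0.709 to 2.15 of WT, and at 0.188 to 0.542 in SHP099. Without Kit the mast-cell list was at 1.43 in KO_3, the highest KO library, and its SHP099 values (0.279 to 0.614) overlapped KO. Eosinophil markers (3 of 5, led by Siglecf, with Ear6 at 0 and Epx under 0.1) stayed under 1 FPKM in sum, with 0.395, 0.383 and 0.930 in WT, 0.727, 0.537 and 0.280 in KO and at most 0.0368 in SHP099.

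Of the remaining lists, neutrophil markers (7 of 8, led by S100a8, with Ly6g under 0.1) summed to between 46.0 (WT_1) and 108 (KO_3, with WT_2 next at 104), most of it S100a8. S100a9, whose protein pairs with that of S100a8 in neutrophils, read at most 1.11 FPKM, so this sum is an uncertain measure of neutrophils. Monocyte markers (4 of 4, led by Ly6c2) lay between 3.88 (SHP099_2) and 21.8 (WT_3), with every KO library below every WT library (5.95, 4.42 and 6.44 against 6.48, 6.55 and 21.8). Without Ly6c2 these groups overlapped (2.21, 0.991 and 2.92 in KO against 1.01, 2.93 and 4.18 in WT). Large peritoneal macrophage markers (6 of 6, led by Cxcl13) lay between 9.11 (KO_2) and 25.9 (WT_2). T- and NK-cell markers (6 of 8, led by Cd3g, with Ncr1 and Klrb1c under 0.1) lay between 0.484 (KO_2) and 6.50 (WT_3), and every SHP099 library (4.27 to 6.26) was above every KO library (0.484 to 3.47). Itgam, Itgax and Itgal are also carried by neutrophils, dendritic cells and lymphocytes, and the part of these cells in the values below was not tested.

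**Figure D1:**
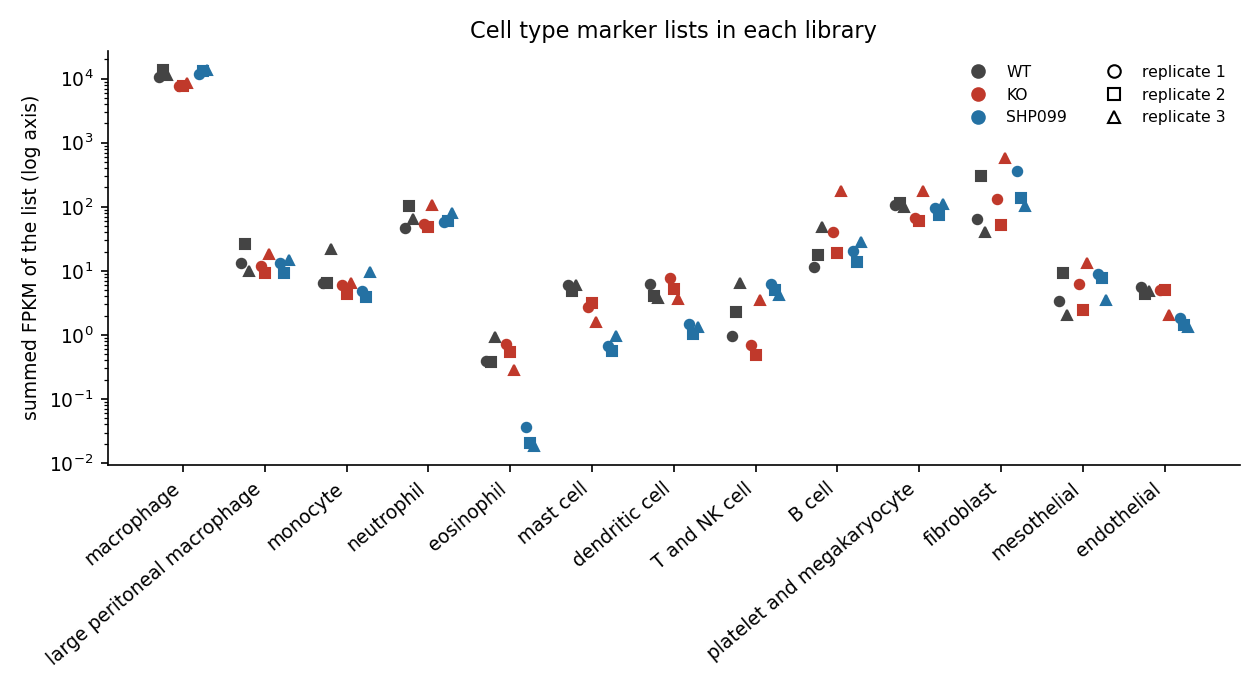
Summed FPKM of each cell-type marker list (log axis) in each of the 9 libraries, each point a library, coloured by group and shaped by replicate number. The macrophage list lies far above all others, and dendritic-cell, endothelial, mast-cell and eosinophil sums are lowest in SHP099.

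The order of the 10 levels in WT ran from Itgb2 (mean 1105 ± 151 FPKM, SD, n = 3) through Itgb1 (555 ± 30.4) and Itga5 (210.4 ± 7.70) down to Flrt3 (24.5 ± 2.29) and Itga6 (5.27 ± 3.19). Between them came Itgal (117 ± 38.1), Itgax (98.3 ± 56.5) and Itgam (75.2 ± 13.3), which overlapped one another. Then came Itgav (47.3 ± 9.32), which still overlapped Itgax, and Itga4 (38.4 ± 4.601), which overlapped Itgav but not Itgax. The beta chains were thus above every alpha chain, and the fibronectin receptor chain Itga5 had the highest FPKM of the alpha chains. The place of Itgam in this order is uncertain, since 68.7% of its exonic bases also belong to another annotated gene, Gm49368, and reads there may not have been counted. All places also rest on the mean transcript lengths behind FPKM. In SHP099 the first 3 places were the same, but Itgax, at 18.2 ± 2.91, came after Itgav (24.02 ± 3.04), just above Flrt3 (7.96 ± 0.42), while Itgam overlapped Itgal and Itga4 overlapped Itgav. In KO the values of Itgax overlapped those of Itga5, Itgal and Itgam, while every KO value of Itga5 (123 to 214) lay above every KO value of Itgam (45.8 to 111). Itga5 and Itgax overlapped also within KO_1 and KO_2, and KO_3 had its own order, with Itgam above Itgal and Itgax.

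**Figure D2:**
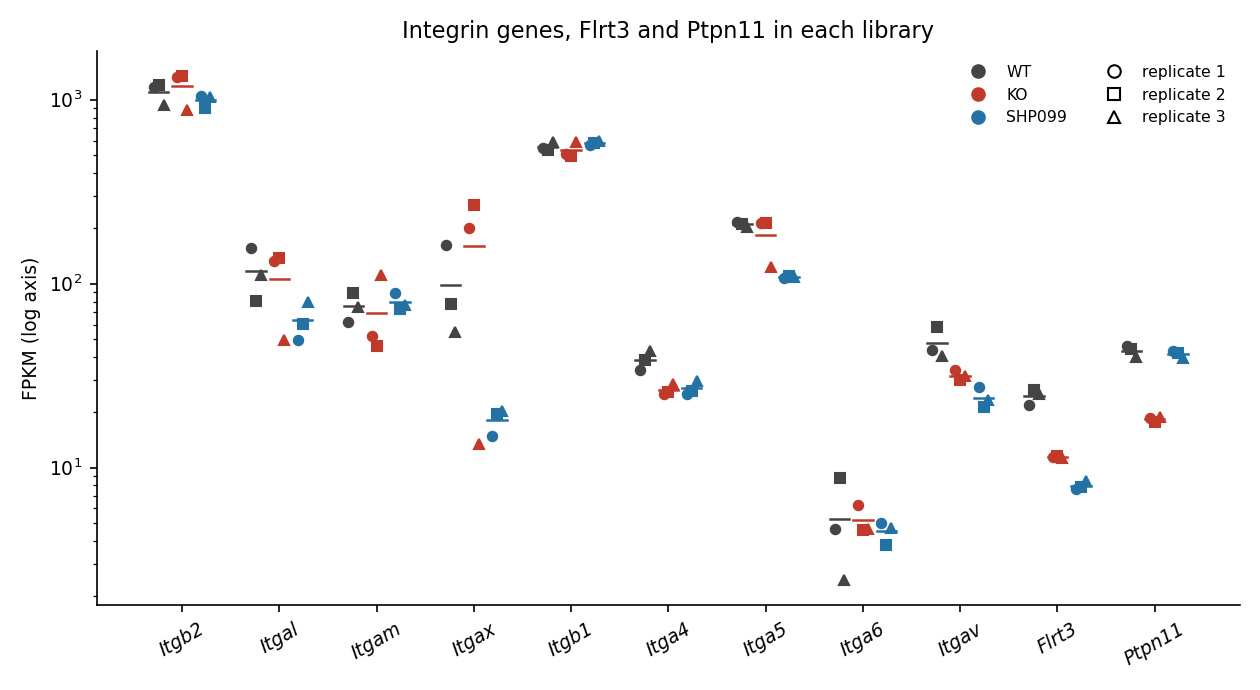
FPKM (log axis) of the 10 genes and of Ptpn11, each point a library, coloured by group and shaped by replicate number, with lines at group means. Flrt3 is lowest in SHP099 and intermediate in KO without overlap, while Itgax spreads from 13.5 to 267 within KO.

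In the beta2 family, the common chain Itgb2 (chr10:77530252-77565708, GRCm38) had overlapping values in the 3 groups. It read 1174, 1208 and 932 FPKM in WT, 1331, 1347 and 877 in KO and 1051, 905 and 1040.2 in SHP099. The groups overlapped, and the KO to WT log2 fold change of 0.08 (SE 0.20, 95% interval -0.39 to 0.56, adjusted p = 0.843) turned to -0.10 with median-of-ratios scaling and was 0.29 (adjusted p = 0.285) without KO_3.

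Its partners differed far more among libraries. Itgax (CD11c, chr7:128129547-128150657), known as a marker of dendritic cells and of activated or tissue macrophages, read 162, 77.8 and 54.9 FPKM in WT, 199.6, 267 and 13.5 in KO and 14.9, 19.5 and 20.2 in SHP099. KO_1 and KO_2 were the highest of the 9 libraries and KO_3 the lowest, at 5.76% of their mean (17.4-fold lower). All SHP099 libraries lay below all WT libraries, with a WT mean 5.40-fold that of SHP099. The KO against WT fold change therefore depended on single libraries. On the log2 scale it was 0.04 (SE 1.10, 95% interval -2.58 to 2.66, adjusted p = 0.988) with all 3 KO libraries, and 1.37 (SE 0.44, 0.29 to 2.46, adjusted p = 0.225) without KO_3. With KO_1 or KO_2 left out instead it was -0.52 or -0.73. Without WT_1, WT_2 or WT_3 it was 0.47, -0.06 or -0.30.

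Itgal, the alpha chain of LFA-1 (chr7:127296260-127335138), showed the same division on a smaller scale. It read 157, 80.9 and 112 FPKM in WT, 133, 138 and 49.3 in KO and 49.4, 60.7 and 79.5 in SHP099. KO_3 stood at 36.5% of the mean of the other two KO libraries, next to the lowest SHP099 library, and SHP099 lay below WT in all 3 libraries. Against WT, the KO log2 fold change was -0.21 (SE 0.43, -1.25 to 0.82, adjusted p = 0.813), and 0.26 (SE 0.26, adjusted p = 0.544) without KO_3.

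Itgam, the alpha chain of Mac-1 (chr7:128062640-128118491), ran the opposite way in KO_3. It read 62.2, 88.6 and 74.7 FPKM in WT, 52.1, 45.8 and 111 in KO and 89.4, 73.2 and 76.4 in SHP099. KO_3, at 227% of the mean of KO_1 and KO_2, was the highest of the 9 libraries and KO_1 and KO_2 were the lowest. The log2 fold change in KO was -0.21 (SE 0.33, adjusted p = 0.76), and -0.60 (SE 0.16, adjusted p = 0.225) without KO_3. Gm49368, the gene that overlaps it on the same strand, read at most 0.0368 FPKM, and the level of Itgam is less certain than its differences between libraries.

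Itgam and Itgax lie 11.1 kb apart on chromosome 7, with Itgad 3.7 kb beyond Itgax, and Itgal lies 727.5 kb from Itgam. Neighbourhood did not go with likeness, since Itgam and Itgax correlated at r = -0.83 over the 9 libraries (a description, from libraries that share their group and culture) whereas Itgax and Itgal correlated at 0.92. Itgad itself read at most 0.141 FPKM.

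The balance of partners was summarised as the summed FPKM of Itgal, Itgam, Itgax and Itgad over that of Itgb2. Both this ratio and the shares that follow carry the uncertain level of Itgam, and would be different if its reads were undercounted. They also rest on the mean transcript lengths behind FPKM. The ratio was 0.325, 0.205 and 0.259 in WT, 0.289, 0.335 and 0.198 in KO and 0.146, 0.169 and 0.169 in SHP099. The KO mean exceeded the WT mean by 0.0113, with an exact two-sided permutation p of 0.8, where 3 against 3 libraries cannot give less than 0.1. Without KO_3 the KO mean was 0.312 and the exact p 0.4, the smallest possible being 0.2. With Itgam as the only alpha chain the difference was -0.0022 (exact p = 1), and without KO_3, whose value was 0.127, the means were 0.0366 in KO and 0.0688 in WT (exact p = 0.2, the smallest possible). The SHP099 libraries had the 3 lowest ratios of the 9, a description since Itgb2 family members were chosen with these values known.

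Within the summed alpha chains the make-up also shifted among libraries. Itgax supplied 42.6, 31.4 and 22.7% of the sum in WT, 51.9, 59.2 and 7.73% in KO and 9.68, 12.7 and 11.5% in SHP099. Itgam supplied 16.3, 35.8 and 30.9% in WT, 13.6, 10.2 and 63.9% in KO and 58.2, 47.7 and 43.4% in SHP099. Itgal kept a share between 28.3 and 46.4% in all 9 libraries. In SHP099_3 this Itgal share was 45.1%, above the 43.4% of Itgam. Across the 9 libraries, KO_1 and KO_2 thus had the highest shares of the CD11c chain, and KO_3 and the SHP099 libraries the highest shares of the Mac-1 chain. Of the genes that led the marker lists given above, Ccr7, Kdr, Kit and Siglecf were also lowest in KO_3 and the SHP099 libraries. The other dendritic-cell markers in sum were low in SHP099 and not in KO_3. Among the KO libraries, the other mast-cell and eosinophil markers in sum were highest in KO_3. The other endothelial markers in sum were lowest in SHP099, and in KO_3 lower than in KO_1 and KO_2 but within the WT range. The part of those cells in this result was not tested.

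**Figure D3:**
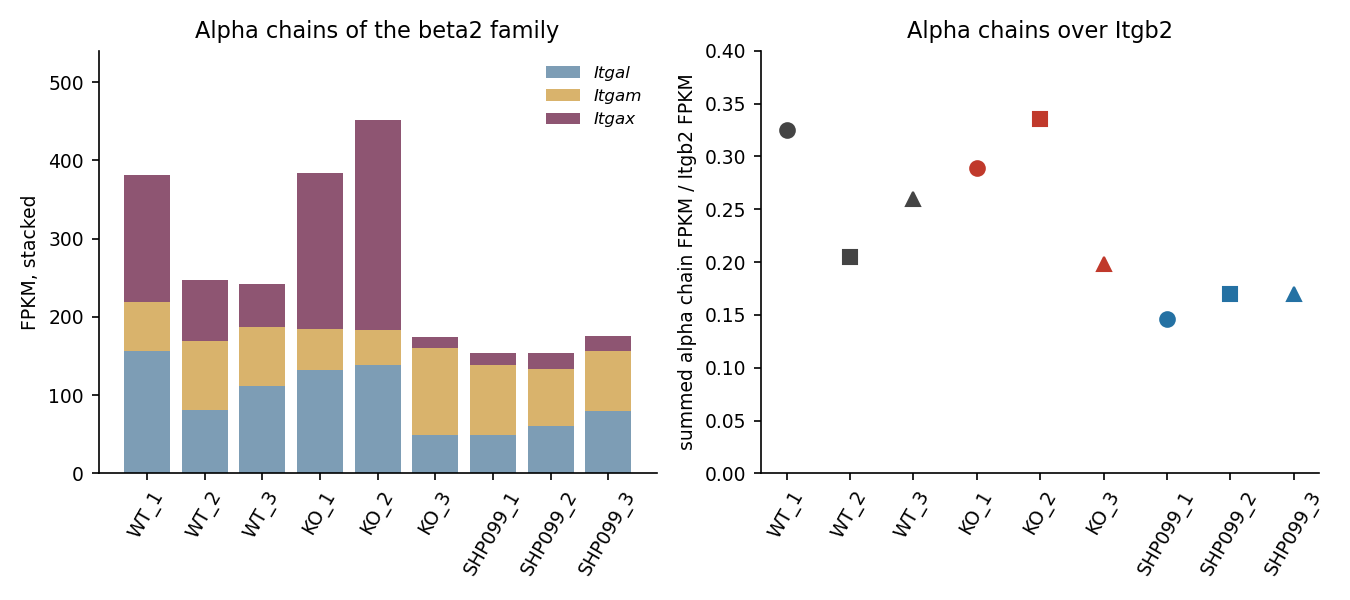
Left, FPKM of Itgal, Itgam and Itgax stacked in each library; right, their sum with Itgad divided by the FPKM of Itgb2, each point a library coloured by group. Itgax is a thin band in KO_3 (13.5 FPKM) and the SHP099 libraries (14.9 to 20.2), whose ratios are the lowest of the 9.

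The promoter of Itgax is printed because its gene varied more between libraries than any other of the 10. It comes from a table of RefSeq promoters (build GRCm38.p6) in which 7 of the 10 genes were matched, chr7:128129300-128129546, plus strand, 247 bases ending just before the annotated first exon. Capitals mark 1 match to the AP-1 motif TGANTCA, 56 bases before the start, and 1 to the CCAAT box on the opposite strand, 178 bases before it, both counted from the RefSeq start, 3 bases beyond the end of the printed run.
Itgax: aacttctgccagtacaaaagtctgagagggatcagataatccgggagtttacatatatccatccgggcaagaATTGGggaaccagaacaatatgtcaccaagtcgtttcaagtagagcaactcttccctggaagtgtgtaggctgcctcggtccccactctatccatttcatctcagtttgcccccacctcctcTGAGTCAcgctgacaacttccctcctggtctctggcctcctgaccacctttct
Of 32851 promoter windows of 250 bases, 6.75% held the AP-1 letters and 33.8% CCAAT on either strand. Itgam, its neighbour, held matches to other motifs: 2 of NF-kB that overlap each other, 1 of the Sp1 GC box and 2 of PU.1, a myeloid transcription factor.

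Among the beta1 and alphaV chains, Itgb1 (chr8:128685654-128733200), the shared partner, likewise overlapped. It read 546, 531 and 589 FPKM in WT, 509, 495 and 589 in KO and 568, 583 and 595 in SHP099. Its KO against WT log2 fold change was -0.07 (SE 0.10, -0.31 to 0.18, adjusted p = 0.75), and -0.14 (adjusted p = 0.369) without KO_3. In SHP099 the log2 difference of 0.07 became -0.08 with median-of-ratios scaling.

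Itga5, the fibronectin receptor chain (chr15:103344286-103366763, minus strand), was one of the 2 genes that led to the choice. It read 217, 212 and 202 FPKM in WT, 213, 214 and 123 in KO and 107, 110.4 and 109 in SHP099. KO_1 and KO_2 thus sat among the WT libraries, KO_3 near the SHP099 libraries, and SHP099 was tightly grouped at 51.7% of the WT mean. Against WT, the KO log2 fold change was -0.24 (SE 0.22, -0.76 to 0.28, adjusted p = 0.608) with KO_3 and 0.02 (SE 0.08, -0.18 to 0.22, adjusted p = 0.878) without it. So the low Itga5 of the inhibitor group had no counterpart in KO_1 and KO_2, and whether KO and SHP099 differ was not tested, since the SHP099 values chose the gene.

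Its promoter, shown as that of a gene chosen for its SHP099 values, spans chr15:103366792-103367041 on the minus strand (RefSeq, GRCm38.p6). Capitals mark 2 matches to the Sp1 GC box GGGCGG, 149 and 6 bases before the start, and 1 to the PU.1 core GAGGAA, 127 bases before it, each on the strand opposite to the letters named.
Itga5: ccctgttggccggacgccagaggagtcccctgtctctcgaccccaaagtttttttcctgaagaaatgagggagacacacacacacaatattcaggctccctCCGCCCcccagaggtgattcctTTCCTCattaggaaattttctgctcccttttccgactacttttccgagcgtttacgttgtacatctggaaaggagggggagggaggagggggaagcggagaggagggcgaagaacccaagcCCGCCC
The GC box occurred in 32.7% and the PU.1 core in 23.3% of the 32851 promoters, on either strand. A match describes letters in this window and not a bound site.

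Itga4, which pairs with Itgb1 to bind VCAM-1 (chr2:79255426-79333123), was lower in both groups than in WT. It read 33.8, 38.4 and 43.0 FPKM in WT, 25.1, 25.7 and 28.5 in KO and 25.2, 26.1 and 29.6 in SHP099. All 6 KO and SHP099 libraries lay below every WT library, and KO and SHP099 overlapped. Its KO against WT log2 fold change was -0.52 (SE 0.12, -0.80 to -0.23), with an adjusted p of 0.398 that missed the test, and -0.57 (adjusted p = 0.223) without KO_3. On the opposite strand Cerkl overlaps 8.0% of its exonic bases and read at most 0.390 FPKM.

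Itgav, the vitronectin receptor chain (chr2:83724397-83806916), had the same order with a further step in SHP099. It read 43.6, 57.9 and 40.4 FPKM in WT, 33.7, 29.9 and 31.3 in KO and 27.3, 21.3 and 23.4 in SHP099. The groups did not overlap: SHP099 was lowest, at 50.8% of the WT mean, and KO lay between. Against WT, the KO log2 fold change was -0.55 (SE 0.15, -0.90 to -0.20), and its adjusted p of 0.448 missed the test, as did that without KO_3 (-0.54, adjusted p = 0.225).

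The laminin receptor chain Itga6 (chr2:71745616-71858416) was the least abundant member, at 2.45 to 8.73 FPKM over the 9 libraries. Its groups overlapped, and its KO against WT log2 fold change of 0.10 (SE 0.37, adjusted p = 0.902) was -0.04 with median-of-ratios scaling and 0.16 (adjusted p = 0.832) without KO_3.

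Flrt3 (chr2:140650914-140671469, minus strand) was, with Itgav, one of the 2 members whose 3 groups did not overlap at all. It read 21.99, 26.4 and 25.2 FPKM in WT, 11.4, 11.6 and 11.3 in KO and 7.64, 7.80 and 8.43 in SHP099. Every KO library lay below every WT library and above every SHP099 library, and KO_3, at 98.2% of the mean of the other two, did not stand apart. The 3 KO values differed by an SD of 0.17 around a mean of 11.4. Flrt3 lies within the span of Macrod2, which is on the other strand, shares none of its exonic bases (0%) and read at most 0.683 FPKM.

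Its KO against WT log2 fold change of Flrt3 was -1.04 (SE 0.11, 95% interval -1.30 to -0.78), lower in 3 of 3 KO libraries. Its adjusted p was 0.0442, past 0.05 but not the adjusted p of 0.005 that a call needed. Over the alternatives the adjusted p ran from 0.00799 to 0.437, and it was above 0.05 in each of the 6 fits that left out 1 library (0.0956 to 0.437, with 0.0956 without KO_3), while the log2 fold change stayed between -1.21 and -0.85. That Flrt3 was low in KO was already known when the gene was chosen, so the test is not independent support.

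The promoter of Flrt3, shown as the gene with the clearest group differences, spans chr2:140671477-140671726 on the minus strand (RefSeq, GRCm38.p6). Capitals mark its 1 match, to the PU.1 core GAGGAA on the opposite strand, 28 bases before the start. The promoter of Itgav, whose values were the most like those of Flrt3 among the members (r = 0.93 over the 9 libraries, a description), spans chr2:83724147-83724396 on the plus strand, and its capitals mark 1 match to the NF-kB letters, GGG and CC with any 5 bases between (203 bases before the start) and 2 to the PU.1 core (218 and 7 bases before it).
Flrt3: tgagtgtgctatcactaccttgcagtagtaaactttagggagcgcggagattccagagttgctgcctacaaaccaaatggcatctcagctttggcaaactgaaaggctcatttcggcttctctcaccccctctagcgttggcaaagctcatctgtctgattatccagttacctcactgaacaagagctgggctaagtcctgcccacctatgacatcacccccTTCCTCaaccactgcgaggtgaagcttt
Itgav: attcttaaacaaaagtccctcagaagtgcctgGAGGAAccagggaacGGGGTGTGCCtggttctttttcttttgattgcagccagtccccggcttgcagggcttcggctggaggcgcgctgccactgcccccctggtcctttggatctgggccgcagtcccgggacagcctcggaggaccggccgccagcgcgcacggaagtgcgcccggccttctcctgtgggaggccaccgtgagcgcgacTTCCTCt
The NF-kB letters occurred in 45.8% of the 32851 promoters on either strand, and no capitals printed here belong to more than 1 match. No match to the CRE-like motif TGACGTCA, which 1.55% of promoters held, lay in any of the 7 members' windows. Itga4 held 1 GC box, and Itgb1 held 1 GC box and 1 PU.1 core.

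Taking the 10 genes by comparison, the first asks what loss of Shp2 in myeloid cells did to these genes under IMQ. None of the 10 was called (0 of 10, adjusted p at most 0.005 and at least 1 log2 unit) by limma, which called 0.00873% of the 11450 tested genes. The count by voom on recovered reads was also 0. At an adjusted p up to 0.05 the count was 1 of 10, Flrt3, against 0.0873% of all genes, and without KO_3 it was 0 against 0.0699%. Flrt3 was chosen with its low KO and SHP099 values known and KO shares its WT libraries with SHP099, so nothing is read from the members' counts beside these shares. At an unadjusted p under 0.05 there were 3 of 10 (Flrt3, Itga4 and Itgav; 3 by voom) against 10.5%, and 5 of 10 without KO_3 against 19.9%. The same 3 genes had every KO library below every WT library, a pattern of 3.07% of all genes, and none of the 10 had every KO library above, a pattern of 16.0%.

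Most genes read slightly higher in KO and in SHP099 than in WT. The median log2 difference over the 11450 genes was 0.15 for KO and 0.13 for SHP099 against WT, and median-of-ratios scaling moved these by -0.16 and -0.13. Relative to that median, Flrt3 was at -1.18, Itgav at -0.70, Itga4 at -0.66 and Itga5 at -0.39 (-0.16 without KO_3) in KO. All 10 members lay below the median in KO, 7 of them without KO_3, when Itgax stood at 1.19 and Itgb2 and Itgal at 0.11 and 0.09 above it. Before the median of all genes is taken off, the median log2 fold change of the members was -0.21 in KO, and -0.06 without KO_3.

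The second comparison asks what blocking Shp2 with SHP099 in wild-type cells did, and here the members are described only. Relative to the median of all genes, the log2 differences from WT were -2.36 for Itgax, -1.64 for Flrt3, -1.07 for Itga5 and for Itgav, -0.98 for Itgal and -0.62 for Itga4. These 6 genes had every SHP099 library below every WT library, a pattern of 6.77% of all genes, from which nothing is read since the contrast chose the members. None had every SHP099 library above, a pattern of 27.9% of all genes. The other 4 overlapped WT, with -0.27 for Itgb2, -0.19 for Itga6, -0.06 for Itgb1 and -0.04 for Itgam. So Flrt3 and 5 of the 7 alpha chains were lower in SHP099 libraries, and Itga6, Itgam and the beta chains Itgb1 and Itgb2 overlapped.

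**Figure D4:**
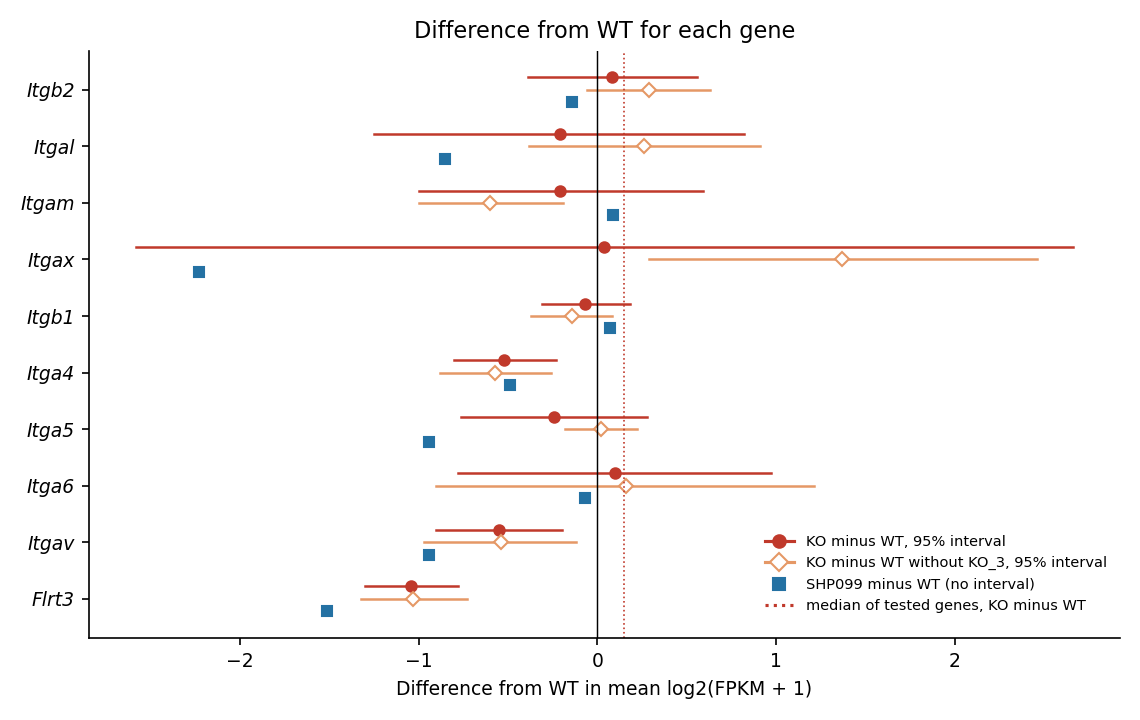
Difference from WT in mean log2(FPKM + 1) for the 10 genes, with circles for KO, diamonds for KO without KO_3 (bars, 95% intervals) and squares for SHP099 (no interval), and the median of all tested genes in KO as a dotted line. Flrt3, Itga4 and Itgav lie below 0 in each, and the KO interval of Itgax spans -2.58 to 2.66.

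Set side by side, KO and SHP099 differed in level for some members. In KO less SHP099, Itga5 (0.70), Flrt3 (0.47) and Itgav (0.39) had every KO library above every SHP099 library, a pattern of 7.90% of all genes. None of the 10 had every KO library below, a pattern of 9.76%. Itgax (2.27) and Itgal (0.63) overlapped because of KO_3, and without it their log2 differences were 3.61 and 1.11. These are descriptions without a test, since the SHP099 values chose the genes and both groups are set against the same WT libraries.

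By a rule on correlation over the 9 libraries, the 5 genes most like Itga5 and Flrt3 were named, with r as a description over libraries that share groups. For Itga5 these were Kcnn4, a calcium-activated potassium channel (r = 0.988), Fam129b (0.986), Vnn3 (0.984), the mannose receptor Mrc1 (0.980) and Ppfia3 (0.979). Mrc1 read 61.5, 43.8 and 43.5 FPKM in WT, 59.8, 71.2 and 19.4 in KO and 10.3, 10.1 and 9.79 in SHP099, with KO_3 apart as for Itga5. For Flrt3 they were Tarm1, a myeloid activating receptor (0.984), the sphingosine kinase Sphk1 (0.982), the interleukin-1 receptor antagonist Il1rn (0.981), the growth factor Hbegf (0.974) and Gm6377 (0.972). Il1rn had means of 411 FPKM in WT, 141 in KO and 53.6 in SHP099, and Hbegf 9.84, 3.74 and 1.34. The neighbours of Flrt3 thus had intermediate KO means, while for Mrc1 KO_1 and KO_2 lay among or above the WT libraries and KO_3 below them.

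Other genes of integrin and FLRT biology were read from lists of 81 genes, all in the table, of which 51 were tested. Listed at 0 in all 9 libraries were Itgb6, Icam4, the fibrinogen chains Fga, Fgb and Fgg, Rasgrp2 and Unc5d. For Icam4 this is uncertain, since 100% of its exonic bases also belong to Gm47079 on the opposite strand, and reads there may not have been counted. In KO against WT none of the 51 was called by limma (0) or voom (0), none had an adjusted p up to 0.05 (0), and 3 had an unadjusted p under 0.05 (Itga1, Zyx and Fgfr1), which is 5.88% against 10.5% of all genes. Without KO_3 there were 14 at the unadjusted level (27.5%, against 19.9% of all genes) and 0 at the adjusted (0.0699% of all genes). Their median log2 fold change was 0.03, against 0.15 for all genes, and 0.06 against 0.18 without KO_3.

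In SHP099 against WT none of the 51 was called either (0 by limma and 0 by voom), where limma called 0.166% of all genes. At an adjusted p up to 0.05 there were 4 (7.84%, near the 6.96% of all genes), 3 lower and 1 higher, and at an unadjusted p under 0.05 there were 16 (31.4%, against 26.7% of all genes). Every SHP099 library was below every WT library for 11 genes (21.6%, against 6.77% of all genes) and above for 8 (15.7%, against 27.9%). The median was -0.08, against 0.13 for all genes. The share with an adjusted p up to 0.05 was thus close to that of the whole table, and the 4 are given by name with that in view. The lists were also chosen with earlier results of these data known, so the p values below are not independent support.

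Spp1 (osteopontin), a secreted ligand of Itgav and Itga4 pairs, read 1514, 1800 and 1440.4 FPKM in WT, 1225, 1581 and 1266 in KO and 699, 618 and 475 in SHP099. Its SHP099 libraries all lay below every WT library, and its log2 fold change was -1.42 (SE 0.16, adjusted p = 0.00916). The adjusted p was 0.0565 without SHP099_2 and 0.0633 with no filter on low values, and at most 0.05 in the other alternatives. In KO its log2 fold change was -0.23 (adjusted p = 0.528), and -0.18 without KO_3 (adjusted p = 0.495). Whether KO and SHP099 differ was not tested.

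Itga1, the collagen receptor chain that pairs with Itgb1, read 4.39, 3.62 and 5.01 FPKM in WT, 2.38, 2.36 and 2.10 in KO and 1.68, 1.06 and 1.71 in SHP099. The groups did not overlap, and KO lay between, as for Flrt3 and Itgav. In SHP099 the log2 fold change was -1.11 (SE 0.18, adjusted p = 0.0216), which was above 0.05 without WT_1 or any 1 of the SHP099 libraries (0.0257 to 0.11 over left-out libraries). The adjusted p was also above 0.05 with no filter on low values (0.0809). In KO the log2 fold change was -0.70 (SE 0.15, adjusted p = 0.388), and -0.65 (adjusted p = 0.225) without KO_3.

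Actn1, an actin cross-linker that links integrins to the cytoskeleton, read 162, 188 and 91.7 FPKM in WT, 155, 171 and 103 in KO and 74.8, 58.1 and 61.2 in SHP099. Its log2 fold change in SHP099 was -1.12 (SE 0.26, adjusted p = 0.0484), and leaving out WT_1, WT_2 or any 1 SHP099 library took it above 0.05 (0.00707 to 0.191). So did no filter on low values, an equal sum per library, a fit without a trend and the replicate block (up to 0.173). Fermt3 (kindlin-3), the integrin activator of blood cells, read 75.5, 73.1 and 74.9 FPKM in WT, 71.1, 62.1 and 90.8 in KO and 98.8, 99.4 and 98.5 in SHP099. Its log2 fold change was 0.40 (SE 0.07, adjusted p = 0.0224), 0.28 above the median of all genes, and leaving out WT_1, WT_2 or any 1 SHP099 library (0.0167 to 0.129), median-of-ratios scaling or all 9 libraries in one fit (up to 0.194) took it above 0.05. So of the 4, Spp1 was the least dependent on a single library.

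By list, a list of Itgad, a partner of Itgb2, and of Itgae had 0 of 2 genes tested. Other alpha chains had 2 of 9 tested, Itga9 and Itga1, with a median log2 fold change of -0.55 in KO (-0.74 without KO_3) and -0.73 in SHP099. Itga9 read 8.39, 9.72 and 9.53 FPKM in WT, 5.27, 4.23 and 12.8 in KO and 6.88, 6.56 and 7.82 in SHP099, another gene at its highest in KO_3. Other beta chains had 4 of 6 tested, with medians of -0.03 in KO (-0.12 without KO_3) and -0.06 in SHP099, and the most abundant, Itgb7, the partner of Itga4 on gut-homing lymphocytes, read 164, 172 and 264 FPKM in WT, 105, 136 and 207 in KO and 159, 135 and 109 in SHP099. In SHP099 every library of Itgb7 lay below every WT library, but it passed in neither comparison (adjusted p = 0.532 in KO, 0.233 without KO_3, and 0.151 in SHP099). Itgb5, a partner of Itgav, overlapped between groups at 22.1 to 34.4 FPKM, as did Itgb8, another such partner, at 0.441 to 2.32 FPKM. Itgb3, also tested and named here after its values were seen, read 1.08, 0.938 and 0.560 in WT, 1.96, 2.39 and 0.829 in KO and 0.964, 0.830 and 0.804 in SHP099. Its adjusted p was 0.495 in KO and 0.225 without KO_3.

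Integrin ligands had 14 of 23 tested, with medians of -0.08 in KO (-0.12 without KO_3) and -0.14 in SHP099, and 1 with an adjusted p up to 0.05, Spp1. Fibronectin (Fn1), the ligand of Itga5, read 315, 829 and 248 FPKM in WT, 326, 215 and 719 in KO and 518, 438 and 476 in SHP099, and varied more within WT and KO than between groups, and its highest library in each group (WT_2, KO_3 and SHP099_1) was the one with the highest fibroblast sum, whose part was not tested. Complement C3, whose iC3b fragment Mac-1 and Itgax pairs bind, read 374, 558 and 415 in WT, 362, 283 and 427 in KO and 346, 336 and 492 in SHP099.

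Activators and linkers had 27 of 31 tested, with medians of 0.05 in KO (0.08 without KO_3) and 0.00 in SHP099, and 2 with an adjusted p up to 0.05 in SHP099, Actn1 and Fermt3. The most abundant were Slc3a2 (CD98 heavy chain), which binds beta chains inside the membrane, at 712 to 1001 FPKM, Cd9 and the small GTPase Rap1b, an activator of integrins, at 366 to 515 FPKM. The tetraspanin Cd9, which associates with integrins, read 562, 457 and 348 FPKM in WT, 711, 823 and 257 in KO and 309, 308 and 259 in SHP099, again with KO_3 at the SHP099 level. Zyx (zyxin), a protein of focal adhesions named here after its values were seen, read 143, 91.9 and 103 in WT, 70.7, 78.9 and 73.0 in KO and 71.3, 37.8 and 58.7 in SHP099, with an adjusted p of 0.454 in KO (0.237 without KO_3) and 0.0567 in SHP099.

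The FLRT family and its partners had 4 of 10 tested, with medians of 0.45 in KO (0.16 without KO_3) and -0.09 in SHP099, and none with an adjusted p up to 0.05 (0 by limma). Flrt2 read 2.57 to 5.64 FPKM, below Flrt3 in WT. The latrophilin Adgrl2, a binding partner of FLRT proteins, read 16.5, 32.9 and 34.9 FPKM in WT, 9.63, 9.44 and 35.7 in KO and 15.9, 15.9 and 15.5 in SHP099, so that KO_3 again parted from the other KO libraries. Fgfr1, a growth factor receptor with which Flrt3 associates, read 5.97, 8.46 and 3.78 in WT, 14.1, 8.59 and 14.0 in KO and 11.1, 7.55 and 7.55 in SHP099, with a KO log2 fold change of 0.93 (adjusted p = 0.455), and 0.82 (adjusted p = 0.251) without KO_3.

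**Figure D5:**
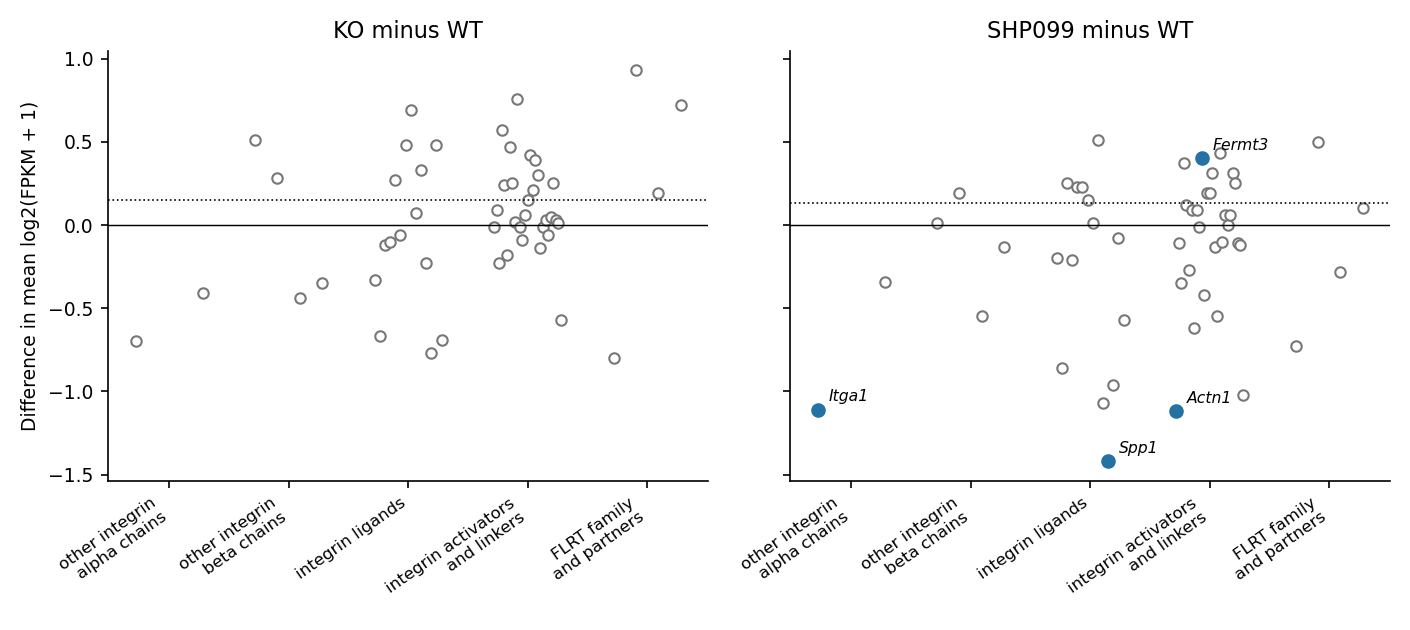
Difference from WT in mean log2(FPKM + 1) of each tested list gene in KO (left) and SHP099 (right), each point a gene, by list, with the median of all tested genes as a dotted line. Filled points have an adjusted p up to 0.05: none in KO, and Spp1, Itga1, Actn1 (below 0) and Fermt3 (above 0) in SHP099.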

How the data were processed

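RNA-seq libraries were made from 9 cultures of mouse peritoneal macrophages, 3 each of WT, KO and SHP099. The values used are the deposited FPKM of the authors, who aligned reads with HISAT2 2.0.4 and counted them with HTSeq 0.9.1. The build and annotation are not given in the sources used here. Genes were mapped by Ensembl identifier to GENCODE M21 (53706 of 54059 genes), and 4801 of 5235 gene spans in the authors' assembly file (91.7%) equalled those of GRCm38. Reads were recovered as FPKM times mean transcript length and depth: 96.3 to 96.7% of values up to 50 reads came out whole within 0.05, where 10% would by chance.

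Log2(FPKM + 1) of the 11450 genes with a mean of at least 1 FPKM was fitted with limma 3.58.1 (eBayes with trend) in R 4.3.3 on the 6 libraries compared, with Benjamini-Hochberg adjustment over all 11450. A call needed an adjusted p of at most 0.005 and at least 1 log2 unit, the thresholds of the study's methods, and 0.05 was a second reading. The ratio was tested by an exact two-sided permutation test (scipy 1.17.1). Tables and plots were made with pandas 2.3.3, matplotlib 3.10.9 and numpy 2.4.6 under Python 3.11.15. The fit was tested on simulated data. Alternatives were the pseudocount, filter, scaling, prior, pooled fit, replicate number as a block, voom on recovered reads, threshold, and leaving out each library.

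The genes and lists were chosen with earlier results of these data known. Named were the 10 genes, Ptpn11, list genes that reached an adjusted p of 0.05 or were among the 3 tested genes of highest mean in a list, the 5 genes most correlated with Itga5 and with Flrt3, and the most abundant and absent markers. After their values were seen, Msr1, Csf1r, Zyx and Itgb3 were named as well. Promoters are the 250 bases before the RefSeq start. Other genes of the table were used for the background only.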

Additional observations from a re-analysis of the deposited data

How the results depend on the processing

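The count of members called in KO against WT was 0 in every alternative that kept the threshold, those without 1 library included (0 to 0), and 1 with adjusted p up to 0.05 as the sole threshold. For the pathway lists it was 0 in KO against WT in all alternatives (0 to 0 without 1 library), and in SHP099 against WT 0 (0 to 0) except for 4 with adjusted p up to 0.05 as the sole threshold. The ratio of alpha chains to Itgb2, 0.0113 higher in KO, was -0.0022 with Itgam alone and ran from -0.0193 to 0.0491 without 1 library, below 0 without KO_2 or WT_2.

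Of the members' KO against WT log2 fold changes, median-of-ratios scaling turned Itga6 to -0.04, Itgax to -0.14 and Itgb2 to -0.10, which follows from its shift of the median by -0.16. Without 1 library the direction turned for 6 genes, with ranges of -0.37 to 0.02 for Itga5, -0.27 to 0.48 for Itga6, -0.47 to 0.26 for Itgal, -0.60 to 0.03 for Itgam, -0.73 to 1.37 for Itgax and -0.03 to 0.29 for Itgb2. It held for Flrt3 (-1.11 to -0.98), Itga4 (-0.60 to -0.43), Itgav (-0.65 to -0.40) and Itgb1 (-0.14 to -0.02). The adjusted p of Flrt3 was above 0.05 with a pseudocount of 5 (0.053), no filter (0.0721) and no trend (0.0718). The cause of these changes was not tested. Itga6 has no value at a minimum mean of 5 FPKM.

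Replicate numbers share only a number: correlations between libraries of the same number, after group means, ran from -0.431 to 0.492. As a replicate block they gave 0 members called, 0 list genes in either comparison, and an adjusted p of 0.184 for Flrt3.

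The SHP099 descriptions kept their direction without 1 library except for Itga6 (-0.43 to 0.31) and Itgam (-0.04 to 0.22). Median-of-ratios scaling turned Itgam to -0.06 and Itgb1 to -0.08. The lowest value of a member rested on 233 reads, and for Itga6, the gene with that value, counting error is the largest of the 10.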

Other observations

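The 9 libraries fell into different orders for different members. Flrt3, Itgav and Itga4 were low in all KO and SHP099 libraries, and over the 9 libraries Flrt3 correlated with Itgav at r = 0.93 and with Itga4 at 0.88. Itga5, Itgal and Itgax were higher in each library of WT, KO_1 and KO_2 than in KO_3 or any SHP099 library. For Itgal the gap was small (80.9 FPKM in WT_2 and 79.5 in SHP099_3). The r was 0.92 between Itgax and Itgal, 0.91 between Itgax and Itga5 and 0.85 between Itga5 and Itgal. Itgav and Itga4 correlated at 0.72. Across these sets of genes r was 0.48 for Flrt3 and Itgax and 0.10 for Itga4 and Itgax. Itga5, however, correlated at 0.77 with both Flrt3 and Itgav, so the genes did not divide cleanly. The division was seen in the values after the fact, the libraries share their groups, and it was not tested.

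The beta chains ran against each other: Itgb1 and Itgb2 correlated at r = -0.93 over the 9 libraries, as Itgb1 did with Itgax (-0.86), while Itgb2 and Itgax correlated at 0.85. On the scale of FPKM the range of Itgb1 was 495 to 595 and that of Itgb2 877 to 1347.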
